A study of Mastomys natalensis with 3 samples.

Results

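The genes described here act in the synthesis of the polyamines and in its feedback control by antizyme. They were chosen by name, as every probe set whose only gene symbol was Odc1, Amd1, Oaz1, Azin1 or Srm. This gave 6 probe sets of 4 genes out of 8740 non-control probe sets that cover 4736 genes. Srm, which encodes spermidine synthase, was not the symbol of any probe set in the annotation used and is not analysed here. The set was proposed because Odc1 was highest after 8 weeks of loxtidine, so its values on that array are a description and not a finding.

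RNA of Mastomys natalensis, a rodent prone to gastric carcinoids, had been hybridised to 3 Affymetrix rat arrays, 1 for each group. The groups were animals with a spontaneous carcinoid of the enterochromaffin-like (ECL) cells, animals given loxtidine for 16 weeks and animals given loxtidine for 8 weeks. Loxtidine blocks the histamine receptor of the acid-secreting cells. The descriptions call all 3 samples populations enriched for ECL cells, whereas the source field names gastric mucosa for the carcinoid and 16-week samples and ECL cells for the 8-week sample. No untreated group was analysed here, and the sources used here do not state the number of animals, their sex or their age. With 1 array per group there is no replicate, standard error or test, and every difference describes these arrays. In such bulk RNA, fewer cells of a type and less RNA per cell cannot be told apart.

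Polyamines are small cations that bind nucleic acids and are required for cell growth. Ornithine decarboxylase, the product of Odc1, makes putrescine from ornithine, and Amd1 encodes the decarboxylase that supplies the aminopropyl groups for spermidine and spermine. When polyamines are plentiful, a ribosomal frameshift allows antizyme to be made from Oaz1 mRNA, and antizyme binds ornithine decarboxylase and delivers it to the proteasome. Azin1 encodes an inactive relative of the enzyme that captures antizyme and so spares it. In the gastrointestinal mucosa ornithine decarboxylase is known for its induction during growth and repair. Because much of this control acts on translation and protein stability, mRNA levels do not measure enzyme activity.

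Each probe set was compared only with itself across arrays, since rat probes may bind Mastomys transcripts unequally. Values are given as deposited (arbitrary intensity units) and after quantile normalization, which gives the arrays the same distribution. A floor of 12.4 normalized units, the median of all non-control values, separated measured values from bounds. Where 1 array of a pair lay below it, the fold is a bound ("at least"), and where both did, no fold is given. Among the controls, 34 probe sets are without a presumed target here, and 7 of them reached the floor in the carcinoid, 9 at 16 weeks and 8 at 8 weeks. Values just above the floor therefore could not be told from background. The highest of these controls read 55.3, 31.3 and 34.6 as deposited on the same arrays.

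The median deposited intensity was 13.9 in the carcinoid, 13.1 at 16 weeks and 10.2 at 8 weeks. The 8-week array stood apart in its GAPDH controls, where the ratio of the 3' to the 5' probe set was 2.31 in the carcinoid, 1.43 at 16 weeks and 8.95 at 8 weeks. For beta-actin the same ratio was 11.7, 6.71 and 16.1 on these arrays, so by that control it was high on every array. The lot named in the labels differed between the 3 arrays, and its part cannot be told apart from that of the group. Only 1 kind of error could be measured, the disagreement between a gene's own probe sets. It is given as the root mean square divided by the square root of 2, which refers it to a single probe set. This spread was 0.82 on the log2 scale for carcinoid against 8 weeks, over 395 genes. Over 410 genes it was 0.79 for 16 weeks against 8 weeks, and over 457 genes it was 0.62 for carcinoid against 16 weeks. It holds no variation between animals. Of the markers of ECL and other neuroendocrine cells, 7, 9 and 9 of 13 measured genes reached the floor on the carcinoid, 16-week and 8-week arrays. The enzyme that makes histamine, Hdc, was below the floor on all of them. Chief cell markers summed to 4136, 5140 and 5167 normalized units and parietal cell markers to 1696, 2409 and 2536, so the arrays also held RNA of other gastric cells. The gene Cblif was counted in both lists. As deposited the sums were 4236, 6279 and 4029 for chief cells and 2215, 2582 and 1560 for parietal cells. The 8-week sums were thus highest after normalization and lowest as deposited.

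**Figure D1:**
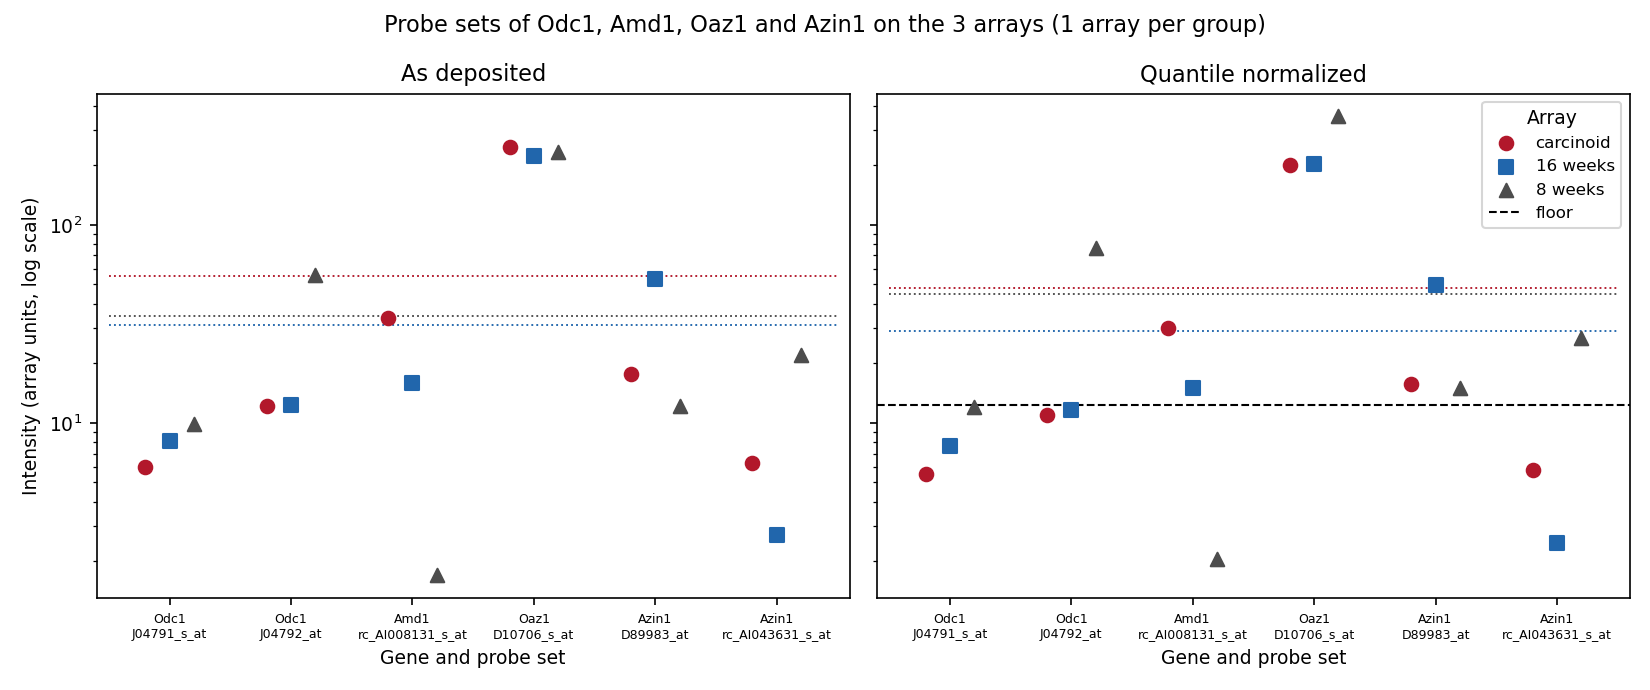
Intensity of the 6 probe sets on each array (log axis, arbitrary units), as deposited on the left and quantile normalized on the right, with 1 point per array. Dotted lines mark the highest no-target control of the array of the same colour, and the dashed line marks the floor of 12.4. Oaz1 lies above these lines on all 3 arrays, Odc1 J04792_at exceeds its own array's line at 8 weeks and Azin1 D89983_at at 16 weeks.

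Odc1 was represented by 2 probe sets that differed in brightness. The brighter, J04792_at, read 12.2 as deposited in the carcinoid, 12.3 at 16 weeks and 55.6 at 8 weeks. After normalization these values were 10.9, 11.6 and 76.2. The 8-week value lay above the floor and above all 34 no-target controls of its array, whereas the other arrays were below the floor and near one another. Odc1 was thus at least 6.16-fold lower on the carcinoid array and at least 6.16-fold lower on the 16-week array than on the 8-week array. As deposited, with both arrays of each pair at or above the floor of that setting (12.2), these folds were 4.56 and 4.52. On the carcinoid array 8 of the 34 no-target controls read at least as high as this probe set, and on the 16-week array 10 did.

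The dimmer Odc1 probe set, J04791_s_at, read 6 as deposited in the carcinoid, 8.1 at 16 weeks and 9.9 at 8 weeks. Its normalized values of 5.51, 7.61 and 12.05 were all below the floor, so it gave no fold. Its order of arrays had the 8-week array highest as well, but it added no measured difference at this floor. With the floor at the 25th percentile of all values (4.19) it was 2.19-fold lower in the carcinoid and 1.58-fold lower at 16 weeks than at 8 weeks. These readings were within background, as 19, 13 and 8 of the 34 no-target controls read at least as high on the carcinoid, 16-week and 8-week arrays. The high 8-week reading of Odc1 therefore rests on 1 probe set. Of all 8740 probe sets, 11, with J04792_at among them, stood at least this far above the higher of the other arrays at 8 weeks, and 747 (8.55%) reached the floor on the 8-week array alone. Only the 4371 probe sets at or above the floor at 8 weeks could be among the 11. Odc1 was chosen for its high 8-week value, so its place among them is a description.

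Amd1 had its lowest reading on the array where Odc1 had its highest. Its probe set, rc_AI008131_s_at, read 33.8 in the carcinoid, 15.9 at 16 weeks and 1.7 at 8 weeks. The normalized values were 30.2, 15.0 and 2.05, so the 8-week value was below the floor and all 34 no-target controls of that array read at least as high. Amd1 was at least 2.44-fold higher in the carcinoid than on the 8-week array, and 2.01-fold higher on the carcinoid array than on the 16-week array. It was at least 1.22-fold higher on the 16-week array than on the 8-week array. On the carcinoid array 3 of the 34 no-target controls still read at least as high, and on the 16-week array 7 did. With a floor of 30.01, the bound of carcinoid against 8 weeks was at least 1.005-fold.

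Oaz1, the antizyme gene, was the member measured above every no-target control on all 3 arrays. Its probe set D10706_s_at read 247 as deposited in the carcinoid, 222 at 16 weeks and 234 at 8 weeks. As deposited the arrays were thus close together, at 1.06-fold higher for carcinoid and 1.05-fold lower for 16 weeks, each against 8 weeks. After normalization the values were 201, 204 and 352. The log2 difference was then -0.81 for carcinoid against 8 weeks and -0.79 for 16 weeks against 8 weeks, neither larger than the spread between probe sets of a gene. Between carcinoid and 16 weeks it was -0.02.

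The direction of Oaz1 depended on the scaling, because the arrays differed as a whole. Where both arrays measured a probe set, deposited values were shifted by a median log2 of 0.45 for carcinoid against 8 weeks and 0.39 for 16 weeks against 8 weeks. When arrays were scaled to the 9 bacterial hybridisation controls, the shifts were 0.93 and 0.52, and Oaz1 differed by 0.66 and 0.09. Relative to the median of all probe sets, Oaz1 was lower in both comparisons with the 8-week array under all 7 ways of processing, with log2 differences of -0.77 to -0.27 for carcinoid and -0.79 to -0.43 for 16 weeks.

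Azin1, the antizyme inhibitor, had 2 probe sets that ran opposite ways. The brighter by mean, D89983_at, read 17.6 in the carcinoid, 53.2 at 16 weeks and 12.2 at 8 weeks, and normalized values were 15.7, 49.7 and 14.9. It was 3.33-fold higher on the 16-week array than on the 8-week array, and 3.18-fold lower on the carcinoid array than on the 16-week array. Carcinoid and 8 weeks differed by 0.07 on the log2 scale. The 16-week value lay above all 34 no-target controls, while 7 controls on the carcinoid array and 6 on the 8-week array read at least as high.

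The other Azin1 probe set, rc_AI043631_s_at, read 6.3 in the carcinoid, 2.7 at 16 weeks and 21.9 at 8 weeks. Normalized values of 5.77, 2.47 and 26.9 put the 8-week array alone above the floor. By this probe set Azin1 was at least 2.17-fold lower on the carcinoid array and at least 2.17-fold lower on the 16-week array than on the 8-week array. Its 8-week reading was matched or exceeded by 5 of the 34 no-target controls. For 16 weeks against 8 weeks the probe sets kept opposite signs under every way of processing that gave both a value, so no direction is given for the gene. Among 410 genes with a pair of probe sets measured on both of these arrays, 34.1% had a pair over 1 apart on the log2 scale. Azin1 was not among them, as rc_AI043631_s_at was below the floor at 16 weeks.

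**Figure D2:**
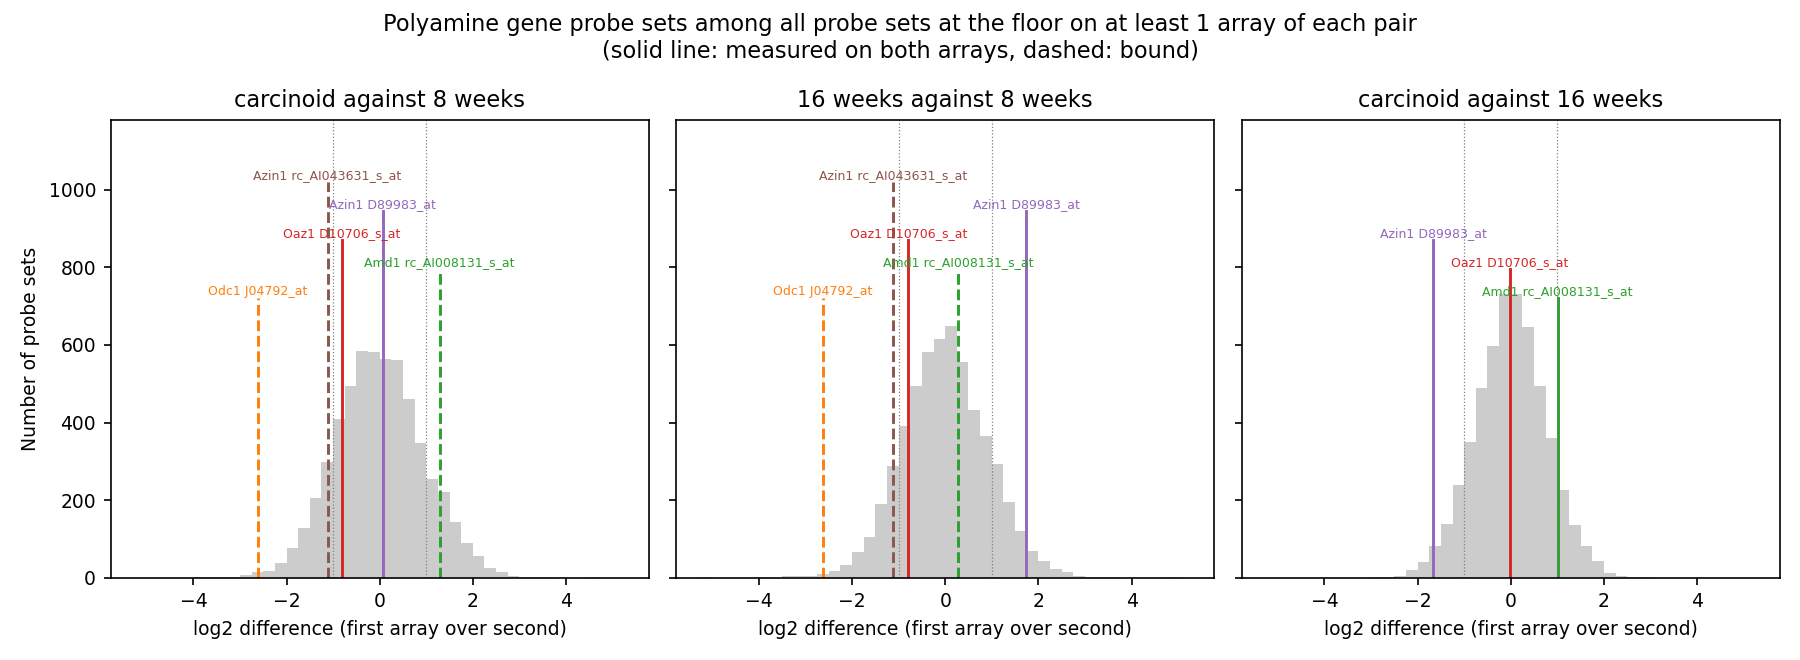
Histograms of the log2 difference of all probe sets at or above the floor on at least 1 array of the pair (x axis, first array over second; y axis, number of probe sets), in quantile normalized values. Coloured lines mark the polyamine gene probe sets, solid where measured on both arrays and dashed where the value is a bound. Odc1 J04792_at lies at -2.62 in both comparisons with 8 weeks, and Oaz1 lies at -0.02 for carcinoid against 16 weeks.

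The number of probe sets at least 2-fold apart was read against the whole array. For carcinoid against 8 weeks, 14.6% of 5620 probe sets were called higher, meaning at least 2-fold apart or with such a bound, and 14.1% were called lower. Of the 6 probe sets described here, 5 were at or above the floor on at least 1 of these arrays, and 3 were called, 1 higher (Amd1) and 2 lower (Odc1 and Azin1 rc_AI043631_s_at). For 16 weeks against 8 weeks, 13.9% of 5586 probe sets were called higher and 13.1% lower, as were 3 of 5 described here, 1 higher (Azin1 D89983_at) and 2 lower (Odc1 and Azin1 rc_AI043631_s_at). Nothing is read from these counts, since Odc1 was chosen on this array and the comparisons share it. For carcinoid against 16 weeks, 9.36% of 5439 probe sets were called higher and 9.74% lower, and of 3 probe sets described here Amd1 was called higher and Azin1 D89983_at lower.

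In the deposited values the balance of all probe sets was different. Those called higher and lower made up 25.8% and 6.04% for carcinoid against 8 weeks. At 16 weeks against 8 weeks they made up 21.8% and 6.38%. Between carcinoid and 16 weeks the shares were 12.2% and 9.62%. Of the probe sets described here 1 was then called higher and 1 lower in each comparison, since the bound of Azin1 rc_AI043631_s_at against the 8-week array was 1.80-fold.

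**Figure D3:**
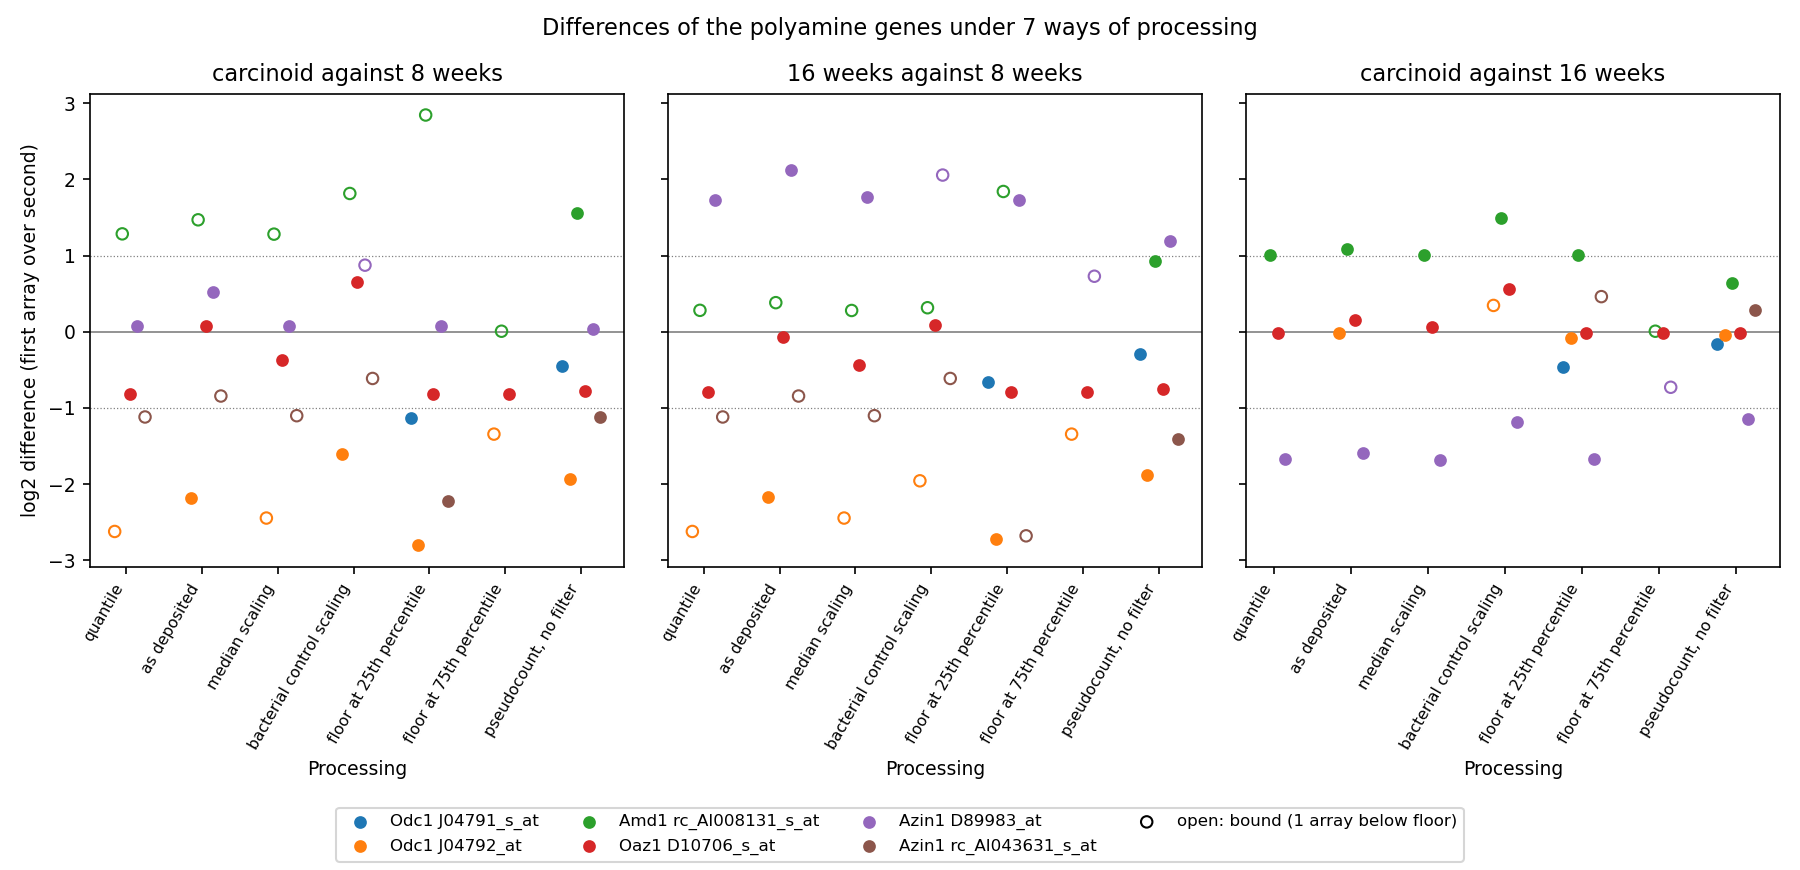
Log2 difference (y axis, first array over second) of each probe set under 7 ways of processing (x axis), with a panel for each comparison. Filled points are measured on both arrays, open points are bounds, and a missing point had both arrays below the floor. Odc1 J04792_at lies between -2.81 and -1.34 for carcinoid and between -2.72 and -1.34 for 16 weeks, each against 8 weeks, whereas Oaz1 changes sign with the scaling.

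The rest of the polyamine pathway was described from a list of 38 genes, of which 19 had a probe set of their own and 17 reached the floor on at least 1 array. The 19 were antizyme, transport, urea cycle, methionine cycle and related genes. No enzyme that makes or breaks down a polyamine was among them, so the counts and medians describe these neighbouring genes only. Each gene took its brightest probe set. For carcinoid against 8 weeks, 1 of 17 genes was at least 2-fold higher and 3 were lower, where 14.6% of 3370 genes were called higher and 13.9% lower. For 16 weeks against 8 weeks, 2 of 15 were higher and 5 lower, where 13.9% of 3345 genes were higher and 13.1% lower. For carcinoid against 16 weeks, 1 of 15 was higher and 0 lower, where 9.38% of 3295 genes were higher and 9.38% lower. The list's median log2 difference was -0.28, -0.41 and 0.29 in these comparisons, with bounds counted at their value, and the median of all genes was -0.02, 0.01 and 0.01.

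As deposited the list's medians were 0.04, -0.15 and 0.39. For carcinoid against 8 weeks 2 genes of the list were then higher and 1 lower, where 26.4% of all genes were higher and 5.91% lower. For 16 weeks against 8 weeks 3 were higher and 2 lower, where 22.7% and 6.32% of all genes were. For carcinoid against 16 weeks 1 was higher and 0 lower, where 12% and 9.38% of all genes were.

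Among the other antizyme genes, Oaz2 read 95.5 as deposited in the carcinoid, 53.3 at 16 weeks and 129 at 8 weeks, above every no-target control of each. It was 2.35-fold lower on the carcinoid array and 3.78-fold lower on the 16-week array than on the 8-week array after normalization. As deposited these folds were 1.35 and 2.41, in the same direction, and carcinoid was 1.61-fold higher than 16 weeks after normalization. For carcinoid against 8 weeks the direction of Oaz2 depended on the scaling, as for Oaz1. The deposited log2 difference of Oaz2 was -0.43 there. Bacterial control scaling, which uses a single factor per array, moved that of Oaz1 up from 0.08 to 0.66. Oaz3, which in mammals is known as the antizyme of the testis, stayed within 1.24-fold between all 3 arrays, at 18.1, 15.1 and 18.8 normalized units, and 6 or 7 no-target controls per array read at least as high.

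Transporters gave mixed readings. Slc3a2, a subunit of amino acid exchangers that has been linked to polyamine transport, was 2.43-fold lower on the carcinoid array and 2.70-fold lower on the 16-week array than on the 8-week array by its brighter probe set, AB015433_s_at (40.8, 36.7 and 99.2 normalized units). Its other probe set, X89225cds_s_at, read 36.9, 13.0 and 14.3, which is 2.58-fold higher on the carcinoid array than on the 8-week array. As deposited the brighter probe set was 1.54-fold and 1.83-fold lower on those arrays, under the 2-fold threshold. The direction of Slc3a2 for carcinoid against 8 weeks thus differed between its probe sets. Slc7a1, a carrier of arginine and ornithine, read 29.3, 22.1 and 40.9 on its brightest probe set and was less than 2-fold apart in each comparison. Its 2 dimmer probe sets were above the floor on the carcinoid array alone. The organic cation transporter Slc22a3 also reached the floor on the carcinoid array alone by its brighter probe set, at 21.2 normalized units, but by the other it did so on the 16-week array alone, at 16.4.

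Genes that supply ornithine were mostly near the floor. Arg1 and Arg2 encode the arginases, which release ornithine from arginine. Arg1 read 13.9, 10.8 and 6.93 normalized units on the carcinoid, 16-week and 8-week arrays, and Arg2 read 3.39, 5.56 and 16.4. Each was above the floor on 1 array, carcinoid for Arg1 and 8 weeks for Arg2, and by bounds of at least 1.12-fold and at least 1.33-fold. Asl, the argininosuccinate lyase that makes arginine, was at least 3.60-fold higher in the carcinoid and at least 3.14-fold higher on the 16-week array than on the 8-week array, at 44.5, 38.9 and 6.69. Its second probe set was above the floor on the carcinoid array alone and was at least 2.88-fold higher there. Otc, a urea cycle enzyme that consumes ornithine, was 2.90-fold lower on the carcinoid array and 2.08-fold lower on the 16-week array than on the 8-week array (13.6, 18.9 and 39.4). As deposited these folds were 2.01 and 1.53. Its other probe set, M11266_at, was below the floor at 16 weeks alone (23.3, 1.10 and 34.04).

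The methionine cycle provides the S-adenosylmethionine on which Amd1 acts. Mat2a, which encodes the synthetase of S-adenosylmethionine outside the liver, read 51.1, 41.95 and 25.7 normalized units and was 1.99-fold higher in the carcinoid and 1.63-fold higher at 16 weeks than at 8 weeks. As deposited these folds were 2.82 and 2.15. Its array order matched that of Amd1, with the 8-week array lowest. So did that of Asl, Arg1, Oat, Slc22a2 and Slc22a3 in the same list, each by its brightest probe set. The orders of Amd1, Asl, Arg1, Slc22a2 and Slc22a3 included values below the floor. The other probe set of Oat read 11.6, 2.56 and 13.9, with the 8-week array highest. How many of all genes have this order was not counted. Ahcy, the hydrolase of S-adenosylhomocysteine, read 25.6, 3.86 and 37.3, and Mtr, methionine synthase, read 20.9, 3.23 and 28.0. Both were below the floor on the 16-week array alone, at least 3.02-fold lower (Ahcy) and at least 2.26-fold lower (Mtr) on the 16-week array than on the 8-week array. Ahcy was also at least 2.07-fold higher in the carcinoid than on the 16-week array.

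The remaining genes of the list were not called at least 2-fold apart after normalization in any comparison, with 1 exception. Nqo1, whose product binds ornithine decarboxylase and slows its breakdown, was 2.04-fold higher at 16 weeks than at 8 weeks and 1.33-fold higher in the carcinoid (43.6, 66.7 and 32.8 normalized units). Oat, the ornithine aminotransferase gene, read 19.1, 15.3 and 12.6 by its brighter probe set, and the organic cation transporter Slc22a2 read 16.9, 13.3 and 10.97. The amino acid carrier Slc7a2 read 1.62, 17.0 and 15.0, and Mat1a, the synthetase gene of the liver, read 8.67, 10.02 and 21.9. None of the last 4 was called after normalization. For Slc22a2, Slc7a2 and Mat1a some folds were bounds, which do not show that the arrays were less than 2-fold apart. Slc7a2 was at least 1.37-fold lower in the carcinoid than on the 16-week array. Mat1a was at least 1.77-fold lower in the carcinoid than on the 8-week array.

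**Figure D4:**
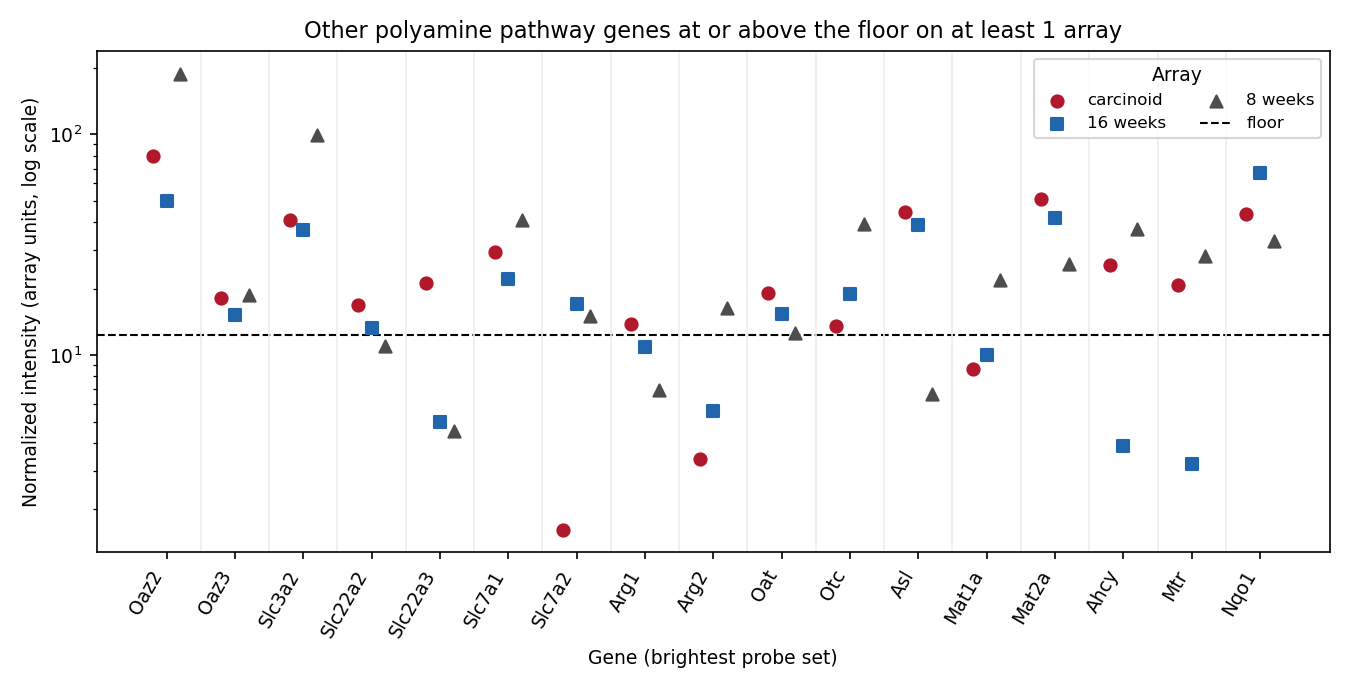
Normalized intensity (log axis, arbitrary units) of the 17 other polyamine pathway genes that reached the floor on at least 1 array, each by its brightest probe set, with 1 point per array. Oaz2 and Slc3a2 are highest on the 8-week array, Asl and Mat2a are lowest there, and the dashed line marks the floor of 12.4.

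Odc1 is a known transcriptional target of Myc, and genes of that network were listed with it. Myc itself read 22.7, 13.1 and 16.4 normalized units on the carcinoid, 16-week and 8-week arrays by its brighter probe set, less than 2-fold apart, and its other probe set was above the floor on the carcinoid array alone, at 23.5. The Myc antagonist Mxd4 was at least 4.34-fold lower on the carcinoid array and 2.92-fold lower on the 16-week array than on the 8-week array (12.1, 18.4 and 53.7). Mxd3, of the same family, ran the other way and was at least 2.01-fold higher in the carcinoid and at least 4.41-fold higher on the 16-week array (24.9, 54.5 and 11.2). Ncl, the nucleolin gene, was 3.22-fold and 2.39-fold higher on those arrays than on the 8-week array by its brighter probe set (108, 80.4 and 33.6), while its other probe set reached the floor on the 8-week array alone. As deposited the brighter one was 4.97-fold and 3.26-fold higher. Of the 22 listed genes 15 had a probe set of their own. For carcinoid against 8 weeks 3 of 13 were higher and 1 lower, where 14.6% and 13.9% of all genes were. Between 16 weeks and 8 weeks 4 of 12 were higher and 2 lower, where 13.9% and 13.1% of all genes were. For carcinoid against 16 weeks 2 of 14 were higher and 2 lower, where 9.38% and 9.38% of all genes were.

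In the deposited values 5 of these 13 genes were higher and 1 lower for carcinoid against 8 weeks, where 26.4% and 5.91% of all genes were. At 16 weeks against 8 weeks 6 of 12 were higher and 2 lower, where 22.7% and 6.32% of all genes were, and between carcinoid and 16 weeks 2 of 14 were higher and 2 lower, where 12% and 9.38% of all genes were. Tfrc, the transferrin receptor gene, was at least 2.10-fold higher in the carcinoid and at least 3.12-fold higher at 16 weeks than at 8 weeks (25.99, 38.6 and 1.78 normalized units). Max, the partner of Myc, was above the floor at 16 weeks alone, at least 2.67-fold higher than on either other array (4.75, 33.0 and 4.18). Mxi1, a further antagonist, was 3.79-fold lower at 16 weeks than at 8 weeks (36.5, 12.4 and 46.9). Its 16-week value lay at the floor, and 9 of the 34 no-target controls of that array read at least as high. The Id genes encode inhibitors of helix-loop-helix factors. Id1 by its brighter probe set was 1.999-fold higher in the carcinoid than at 8 weeks, just under the threshold, and 3.29-fold higher as deposited. Its other probe set was 2.81-fold higher in the carcinoid than at 8 weeks after normalization (74.8, 47.4 and 26.7). Id3 differed in direction between its probe sets.

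The genes whose pattern over the 3 arrays was most like that of Odc1 J04792_at were sought among 3654 genes, by the distance between log2 values centred on each gene's mean. The nearest were the keratin gene Krt4 (distance 0.03; 13.7, 13.8 and 86.7 normalized units on the carcinoid, 16-week and 8-week arrays), Prp15 (0.09), the co-chaperone gene Dnajb1 (0.11; 28.2, 31.3 and 182), the apolipoprotein gene Apoc3 (0.16) and the vitamin D receptor gene Vdr (0.21). With 3 arrays, and with values below the floor set to it, such a match rests mainly on the 8-week array being high.

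Markers of other cells also differed on the 8-week array. The 11 leukocyte markers summed to 143 normalized units in the carcinoid, 218 at 16 weeks and 392 at 8 weeks (160, 233 and 304 as deposited), with 5, 6 and 10 of them at or above the floor. The pan-leukocyte gene Ptprc read 6.6, 13.0 and 16.0, and was below the floor on the carcinoid array. The 9 fibroblast markers summed to 519, 618 and 1486 (630, 662 and 905 as deposited), with 7, 7 and 6 at or above the floor. The decorin gene Dcn made up much of that sum, at 262, 317 and 1090 normalized units. Other fibroblast markers ran the other way, such as Pdgfra at 39.1, 25.9 and 15.2, and the list's median log2 difference was -0.41 for carcinoid against 8 weeks and 0.14 as deposited. Proliferation markers summed to 166, 198 and 182, and to 187, 211 and 142 as deposited. The part of these cells, and of the steeper 3' to 5' ratio of the 8-week array, in the Odc1 reading was not tested.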

How the data were processed

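Per the labels, total RNA of 3 Mastomys samples was measured on Affymetrix rat arrays. The authors deposited 1 linear intensity per probe set and array. How it was summarised, background corrected and scaled is not given in the sources used here. An intensity gives no depth. Of 8799 probe sets, 59 controls were set aside. The platform annotation gave 7006 of the rest 1 symbol, 308 several and 1426 none, and only those with 1 were named.

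The 2% trimmed means differed by up to 52.4%, over the 5% limit, so arrays were quantile normalized. Values below the floor (12.4) were raised to it, and calls were at least 2-fold differences or bounds, with no significance test at 1 array per group. A gene was represented by its brightest probe set, by mean over the deposited arrays. The members and lists were chosen with earlier results of these data known. All member probe sets were named, listed pathway and Myc genes could be named if they reached the floor, and the 5 genes nearest to Odc1 were added. Hdc, Ptprc, Dcn and Pdgfra were named from the marker lists after their values were seen. Fixed alternatives were deposited values, median or bacterial control scaling, other floors (4.19, 30.01), log2 of the value plus the floor, and the median of a gene's probe sets. Python 3.11.15, numpy 2.4.6, pandas 2.3.3, scipy 1.17.1 and matplotlib 3.10.9 were used.

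Marker lists for mucous, pancreatic acinar, smooth muscle, endothelial, mast and erythroid cells were also summed on the carcinoid, 16-week and 8-week arrays. The sums were 1630, 1163 and 1312 (mucous), 229, 233 and 311 (acinar), 345, 283 and 368 (smooth muscle), 72.9, 112 and 158 (endothelial), 108, 90.7 and 118 (mast) and 186, 153 and 180 (erythroid) normalized units. As deposited they were 2024, 1235 and 813 (mucous), 263, 249 and 233 (acinar) and 420, 306 and 254.5 (smooth muscle). The other deposited sums were 80.7, 120 and 124 (endothelial), 122, 96.6 and 93.6 (mast) and 219, 165 and 134.5 (erythroid). The acinar, smooth muscle and mast sums were thus highest on the 8-week array after normalization and lowest there as deposited.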

Additional observations from a re-analysis of the deposited data

How the results depend on the processing

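Odc1 J04792_at was lower on the carcinoid and 16-week arrays than on the 8-week array under all 6 alternatives to quantile normalization with the median floor. Its log2 difference was -1.61 for carcinoid with bacterial control scaling, and with the floor at the 75th percentile it was -1.34 in both comparisons. For carcinoid against 16 weeks it had no value in the main setting. With that higher floor the member probe sets at least 2-fold apart numbered 1 for carcinoid against 8 weeks, 1 for 16 weeks against 8 weeks and 0 for carcinoid against 16 weeks, as fewer probe sets reached it. With log2 of the value plus the floor the last count was 1. The other pathway genes at least 2-fold apart numbered 8 (25th percentile floor) and 2 (75th) for carcinoid against 8 weeks, and 3 (75th) for 16 weeks against 8 weeks. For carcinoid against 16 weeks they numbered 4 (bacterial control scaling), 4 (25th percentile floor), 0 (75th) and 3 (value plus floor). Their median for carcinoid against 8 weeks was 0.70 with bacterial control scaling, with 5 higher and 0 lower. In that setting the median of all probe sets measured on both arrays was 0.93, so the list lay below it. The shares of all genes called were computed only for the main setting and the deposited values. The causes were not tested. The pathway median for carcinoid against 8 weeks also changed sign as deposited (0.04) and with the median of probe sets (0.04), and the split of calls changed to 2 higher and 1 lower as deposited. The deposited median of all probe sets measured on both arrays was 0.45, so the list was again below it. For 16 weeks against 8 weeks the split was 3 higher and 2 lower as deposited and with bacterial control scaling. In all, 57 of the recomputed values lay within 1.5 times the count, or within the spread between probe sets of the log2 difference, whatever their split by direction, and 15 did not. Signal near background limits Odc1 on the carcinoid and 16-week arrays, Amd1 on the 8-week array and both Azin1 probe sets. No paired analysis was possible because each group had 1 array.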
